A study of Mus musculus with 30 samples.

Results

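The tumor necrosis factor (TNF) superfamily was examined in spleen and lymph node of Tg26 mice with lymphoma. Members were the genes whose platform symbol is Tnf, Lta or Ltb or begins with Tnfsf (ligands) or Tnfrsf (receptors) and a number, without the B cell receptors Tnfrsf13b, Tnfrsf13c and Tnfrsf17. That gave 29 of the 19938 measured genes, 12 ligands and 17 receptors, each read by 1 probe set. Tnfsf12 and Tnfsf13 were not among them, since their probe set carries several symbols.

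The ligands of this family are mostly trimeric proteins on the cell surface, some of which are shed, and the receptors pass the signal on through TRAF adaptors to NF-kB or through death domains to caspases. In spleen and lymph node, lymphotoxin and TNF from lymphocytes maintain follicles and stroma, while paired ligands and receptors such as Tnfsf9 and Tnfrsf9 costimulate T cells. BAFF (Tnfsf13b) keeps mature B cells alive, and TRAIL (Tnfsf10) can trigger cell death.

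Gene expression was measured on 30 arrays from 15 mice, 1 array of spleen and 1 of lymph node per mouse. The groups were 3 FVB/N mice (the background strain, controls), 6 Tg26 mice without symptoms and 6 Tg26 mice with lymphoma. All Tg26 mice carried a non-infectious HIV-1 provirus (pNL4-3) that lacks part of gag-pol. They were heterozygous on the FVB/N background and came from a colony bred from animals with skin lesions; about 15% of Tg26 mice develop lymphoma, per the labels. Mice were 5 to 12 months old at death. The labels give no age or sex per mouse. Mice 1 to 3 of each state were in batch A. The remaining Tg26 mice, numbered 4 to 6, were in batch B, which had no FVB/N mouse. For lymphoma mouse 4, title and description of the spleen sample say lymphoma, but its status code is that of the FVB/N mice. It was kept as lymphoma. Its spleen array had lower means than its node array on lists of spleen (6.13, 6.85), macrophage (6.42, 7.16) and neutrophil genes (7.12, 8.25). In every other lymphoma mouse these list means were higher in spleen. Whether the tissue labels of this mouse were exchanged was not tested, and they were kept.

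Levels are log2 intensities, so a difference of 1 is a doubling. Array medians lay between 6.67 and 6.89. The files show 10 arrays that carried transcripts of neighbouring organs: the lymph nodes of FVB/N mice 2 and 3, of asymptomatic mice 2 to 6 and of lymphoma mouse 5, and the spleens of asymptomatic mice 4 and 5. On these, the mean of a salivary gland, exocrine pancreas or adipose and muscle list lay more than 1 log2 unit above the median of all arrays. The lymph node marker list averaged 7.21 to 9.16 in asymptomatic nodes and 5.69 to 6.88 in nodes with lymphoma, where 2 of its 4 genes lay below the level of most olfactory receptor genes (6.34, the 95th percentile of 1027 such genes). Of the 29 members, 24 had a mean level above that mark. The other 5 were Tnfsf4, Tnfsf9, Tnfsf15, Tnfsf18 and Tnfrsf11b, so small differences in them lie in the range of genes these tissues do not use.

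With lymphoma, most members that changed were lower. In spleen 11 of 29 members (37.9%) passed an adjusted p of 0.05 against asymptomatic mice, 2 higher and 9 lower, where 15.8% of all genes passed. In lymph node 15 members (51.7%) passed, 2 higher and 13 lower, where 24.1% of all genes passed. By direction, 8.58% of all genes passed as higher and 7.25% as lower in spleen, and 11.6% and 12.5% in lymph node. The median fitted difference of the members was -0.19 in spleen and -0.42 in lymph node, against -0.03 and -0.02 for all genes. Adjusted p values are limma's with Benjamini-Hochberg adjustment over all genes, here and throughout.

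Of the 29 members, 10 were called in both tissues in 1 direction, as were 11.9% of all genes. Ltb, Tnfsf8, Tnfsf10, Tnfsf14, Tnfrsf1a, Tnfrsf9, Tnfrsf18, Tnfrsf22 and Tnfrsf25 were lower, and Tnfrsf19 was higher. Tnfsf9 was called in spleen alone, and Tnfsf13b, Tnfrsf1b, Tnfrsf4, Tnfrsf14 and Tnfrsf21 in lymph node alone. The fitted difference had the same sign in both tissues for 27 members and for 73.4% of all genes, with both tissues taken from the same mice. For a difference between the tissues in this change, no member passed with surrogate variables, where 0.572% of all genes did. With each mouse as a block Tnfrsf1a alone passed (adjusted p = 0.0397), where 5.91% of all genes did. The levels of lymphoma and asymptomatic mice did not overlap for 3 higher and 6 lower members in spleen, where 4.59% and 4.96% of all genes were so separated. In lymph node they did not overlap for 1 higher and 6 lower members, against 5.04% and 5.81% of all genes.

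**Figure D1:**
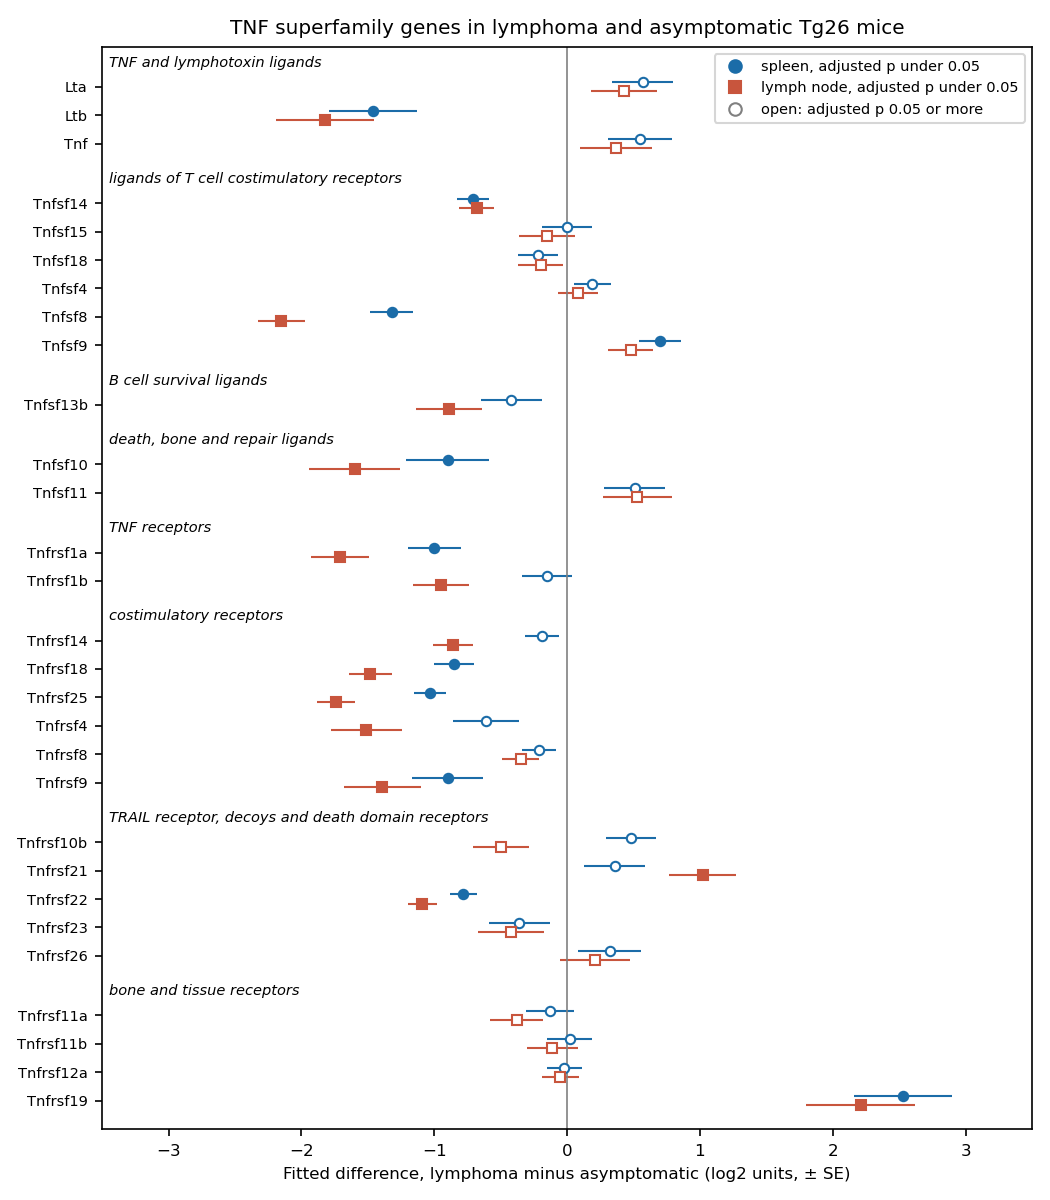
Fitted lymphoma minus asymptomatic difference (log2 units, bars ± SE) of each member in spleen (circles) and lymph node (squares), grouped by role. Filled symbols have an adjusted p under 0.05. Tnfrsf19 lies far to the right in both tissues, at 2.53 and 2.21, and the costimulatory receptors lie at or left of -0.19.

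Markers of other cells differed between these groups. A list of 10 T cell genes averaged 9.57 to 9.86 on asymptomatic spleen arrays and 5.97 to 7.38 on lymphoma spleen arrays, and all 10 fell in both tissues. In lymph node it averaged 8.69 to 10.58 and 6.14 to 7.69. Cd3d, Trat1 and Themis lay below 6.34 on average in both lymphoma groups. Precursor B cell genes rose, with list means of 6.34 to 6.58 in asymptomatic and 9.21 to 9.90 in lymphoma spleens, and 6.22 to 7.32 and 9.67 to 10.11 in the nodes. Mature B cell list means were 10.75 to 11.09 and 7.52 to 9.57 in spleen, and 9.53 to 10.77 and 7.46 to 8.88 in lymph node. NK cell genes fell (5 of 6 in spleen, where 1 rose, and 4 of 6 in lymph node), as did dendritic cell genes (4 and 5 of 6). In lymph node alone, 7 of 8 endothelial and 5 of 7 stroma genes fell and 5 of 6 neutrophil genes rose, while none of these lists had a called gene in spleen. In the fit, 3 of 5 plasma cell genes rose in each tissue. By measured means, Sdc1 and Mzb1 were higher and Jchain, Xbp1 and Prdm1 lower with lymphoma in both tissues. Jchain was at 10.55 in asymptomatic and 8.85 in lymphoma spleens, and at 9.62 and 7.8 in the nodes. The plasma cell list means of lymphoma and asymptomatic mice overlapped in both tissues. The part of these shifts in the members' differences was not tested. In these bulk samples, fewer cells of a type and less RNA per cell cannot be told apart.

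The promoters of the members with the largest called differences are shown to let the sequences be read beside the levels: Tnfrsf19, the largest rise, and Tnfsf8, Ltb and Tnfrsf25, the largest falls. RefSeq promoter windows (GRCm38.p6, 250 bases before to 50 after the gene start, 300 bases, 5′ to 3′ on the gene's strand) were listed for 23 of the 29 members. Capitals mark matches, on either strand, to the usual NF-kB consensus of 10 bases, CAGGAA (ETS), CTTTGA (TCF/LEF) or CAGNTG (E-box). No marked matches overlap in these windows.
Tnfrsf19 promoter, chr14:61046806-61047105, strand -: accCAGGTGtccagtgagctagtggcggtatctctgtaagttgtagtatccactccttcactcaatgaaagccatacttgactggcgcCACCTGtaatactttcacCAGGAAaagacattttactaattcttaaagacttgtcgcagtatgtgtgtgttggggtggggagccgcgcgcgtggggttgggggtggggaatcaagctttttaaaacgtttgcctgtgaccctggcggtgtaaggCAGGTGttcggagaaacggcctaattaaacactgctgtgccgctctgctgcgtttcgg
Tnfsf8 promoter, chr4:63861235-63861534, strand -: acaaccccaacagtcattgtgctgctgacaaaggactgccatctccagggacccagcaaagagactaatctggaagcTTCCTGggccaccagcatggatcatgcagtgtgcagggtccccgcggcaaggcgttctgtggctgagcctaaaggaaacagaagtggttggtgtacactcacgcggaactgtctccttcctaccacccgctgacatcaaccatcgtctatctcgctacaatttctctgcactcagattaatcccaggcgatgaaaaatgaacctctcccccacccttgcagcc
Ltb promoter, chr17:35194257-35194556, strand +: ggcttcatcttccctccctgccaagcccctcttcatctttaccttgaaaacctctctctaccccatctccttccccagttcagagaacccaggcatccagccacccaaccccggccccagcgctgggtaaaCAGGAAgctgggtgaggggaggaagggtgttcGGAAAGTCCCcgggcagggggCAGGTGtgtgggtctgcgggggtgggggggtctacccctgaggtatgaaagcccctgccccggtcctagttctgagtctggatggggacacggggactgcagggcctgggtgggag
Tnfrsf25 promoter, chr4:152115684-152115983, strand +: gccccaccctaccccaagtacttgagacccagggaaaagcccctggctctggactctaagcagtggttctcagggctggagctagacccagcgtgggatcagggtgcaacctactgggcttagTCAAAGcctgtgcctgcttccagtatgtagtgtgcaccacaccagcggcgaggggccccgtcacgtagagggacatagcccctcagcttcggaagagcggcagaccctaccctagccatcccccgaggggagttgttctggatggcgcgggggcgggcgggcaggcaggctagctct
The 23 members have 27 windows. The NF-kB consensus occurred in 4 of the 27, those of Ltb, Tnfrsf8, Tnfrsf9 and Tnfrsf25 (there in the window not shown), and in 5.8% of all 32851 windows. In Ltb the match is GGAAAGTCCC, 77 bases before the gene start. The ETS letters occurred in 9 of the 27 windows (8 members) and in 30.6% of all windows. The E-box letters occurred in 18 of the 27 (16 members) and in 51.4% of all windows. Both are marked in the windows of Tnfrsf19 and Ltb. The TCF/LEF letters occurred in 3 of the 27 windows (3 members) and in 16% of all windows. A match describes the letters of a window and is not a measured binding site. Tnfrsf19 and Tnfrsf25 each have 2 windows listed, of which the first is shown.

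Of TNF and the lymphotoxins, Ltb was lower with lymphoma and Tnf and Lta did not pass with surrogate variables. Ltb encodes lymphotoxin beta, which anchors lymphotoxin alpha at the cell surface. In spleen it was at 10.85, 10.72 and 10.74 in the FVB/N mice. Asymptomatic spleens ran from 11.07 over a median of 11.49 to 12.04, and lymphoma spleens from 8.61 over 9.46 to 11.02. The lymphoma spleens were all below the asymptomatic ones, and those of mice 2 and 5 lay near FVB/N. In the fit Ltb differed by -1.46 (SE 0.33, adjusted p = 0.00321). In lymph node Ltb ran from 10.64 over 11.32 to 11.52 in asymptomatic and from 8.93 over 9.80 to 10.97 in lymphoma mice, and was at 11.03, 9.96 and 10.82 in FVB/N mice. The groups overlapped through lymphoma mouse 2, which was highest in both tissues. The difference in the fit was -1.82 (SE 0.37, adjusted p = 0.000736). Without the arrays with neighbouring-organ transcripts the differences were -0.89 and -1.03, and neither passed. In that setting, here and below, the surrogate variables were found anew on the kept arrays. In spleen the call was also lost without FVB/N mouse 3 (-1.27, adjusted p = 0.0713), without lymphoma mouse 3 (-1.06, 0.0522) and within batch A (-1.70, 0.0564). Within batch A the node difference was -1.16 (adjusted p = 0.184), and without lymphoma mouse 1 it was -1.18 (adjusted p = 0.0412).

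Tnf was at 7.35 ± 0.13 in asymptomatic and 7.60 ± 0.27 in lymphoma spleens, and at 7.17 ± 0.27 and 7.72 ± 0.48 in the nodes (SD, n = 6 each). In the fit Tnf differed by 0.55 (SE 0.24, adjusted p = 0.14) and 0.37 (SE 0.27, adjusted p = 0.368). Without surrogate variables Tnf passed in the nodes (0.55, adjusted p = 0.0409) and not in spleen (0.24, 0.538). Lta, whose product forms soluble or membrane lymphotoxin, was at 7.72 ± 0.17 and 7.53 ± 0.63 in spleen and at 7.28 ± 0.41 and 7.77 ± 0.67 in lymph node. Its fitted differences were 0.57 (SE 0.23, adjusted p = 0.1) and 0.43 (SE 0.25, adjusted p = 0.248). In spleen the fit and the means of Lta differed in sign. Tnf and Lta lie next to each other on chromosome 17 with Ltb 1 gene further, so the member that fell has neighbours that did not pass with surrogate variables.

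Of the 6 ligands of T cell costimulatory receptors, 2 fell and 1 rose in spleen, and 2 fell in lymph node. Tnfsf8, the CD30 ligand, was at 7.37, 7.25 and 7.15 in FVB/N spleens. It ran from 6.51 over 6.99 to 7.31 in asymptomatic spleens and from 4.97 over 5.16 to 6.14 in lymphoma spleens. The 2 groups did not overlap, and lymphoma mouse 5 stood above the other lymphoma mice. Tnfsf8 differed by -1.32 in the fit (SE 0.16, adjusted p = 2.99e-06). In lymph node Tnfsf8 ran from 6.46 over 7.38 to 7.71 in asymptomatic and from 5.34 over 5.66 to 6.28 in lymphoma mice, and was at 8.66, 6.98 and 7.82 in FVB/N mice. These groups did not overlap either. The fit gave -2.15 (SE 0.18, adjusted p = 8.12e-09). It was -1.09 within batch B (adjusted p = 0.035). All lymphoma samples of both tissues lay below the 6.34 mark, so the sizes of these differences are measured against the range of genes not used here.

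Tnfsf14 (LIGHT), which binds Tnfrsf14 and the lymphotoxin beta receptor, was at 7.87 ± 0.25 in asymptomatic and 7.0 ± 0.16 in lymphoma spleens, and at 7.38 ± 0.15 and 6.89 ± 0.22 in the nodes (SD, n = 6 each). In both tissues every lymphoma mouse was below every asymptomatic mouse. Fitted differences were -0.71 (SE 0.12, adjusted p = 0.00012) and -0.68 (SE 0.13, adjusted p = 0.000383). In the nodes of batch B alone the difference was -0.36 (adjusted p = 0.141). Tnfsf9, the CD137 ligand, was at 5.71 ± 0.08 in asymptomatic and 6.27 ± 0.22 in lymphoma spleens, and no lymphoma spleen (6.01 to 6.56) was as low as the highest asymptomatic one (5.80). FVB/N spleens were at 6.28, 5.94 and 5.84, all above the asymptomatic ones, and 1 of them within the lymphoma range. The fit put the difference at 0.70 (SE 0.16, adjusted p = 0.00268). It did not pass without the neighbouring-organ arrays (0.54, adjusted p = 0.189) or within batch A (0.56, 0.0671) or batch B (0.55, 0.0589). In lymph node Tnfsf9 was at 5.78 ± 0.21 and 6.41 ± 0.29 (SD, n = 6 each), with a difference of 0.48 (SE 0.17, adjusted p = 0.0506). Without surrogate variables the node difference was 0.64 (adjusted p = 0.000263).

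Tnfsf4 (OX40 ligand), Tnfsf15 (TL1A) and Tnfsf18 (GITR ligand) passed in neither tissue. Their group means ranged from 4.97 to 5.2, from 5.86 to 6.56 and from 4.96 to 5.27. Tnfsf4 and Tnfsf18 are neighbours on chromosome 1. Tnfsf15 and Tnfsf8 are neighbours on chromosome 4, and of that pair Tnfsf8 fell while Tnfsf15 had fitted differences of 0.00 (SE 0.19) and -0.15 (SE 0.21).

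BAFF (Tnfsf13b), a survival factor of mature B cells made by stroma and myeloid cells, was lower in nodes with lymphoma. Asymptomatic nodes ran from 6.74 over a median of 8.30 to 8.65 and lymphoma nodes from 6.15 over 6.40 to 6.86. FVB/N nodes were at 6.64, 8.36 and 8.96. The 2 low values outside lymphoma were those of FVB/N mouse 1 and asymptomatic mouse 1, the only nodes of these states without neighbouring-organ transcripts. The fitted difference was -0.89 (SE 0.25, adjusted p = 0.0116), while that without surrogate variables was -1.59 (adjusted p = 4.93e-05). It was -0.38 without the neighbouring-organ arrays (adjusted p = 0.387), -0.41 without asymptomatic mouse 4 (0.213) and -0.56 without FVB/N mouse 2 (0.0813). A stroma list averaged 7.77 to 9.47 in asymptomatic and 5.88 to 7.45 in lymphoma nodes. A list of macrophage and monocyte genes averaged 6.90 to 9.25 and 6.48 to 7.73. In the fit 1 of its 5 genes rose in the nodes and 0 fell. Node 1 of the FVB/N and of the asymptomatic mice was the lowest of its state on both lists. There the macrophage means were 7.03 and 6.90 and the stroma means 7.31 and 7.77. The part of both lists in the result was not tested. In spleen Tnfsf13b was at 6.73 ± 0.13 and 6.47 ± 0.07 (SD, n = 6 each). Those groups did not overlap, while the fitted difference was -0.42 (SE 0.23, adjusted p = 0.242). With mouse numbers treated as pairs across states, which the labels do not give, Tnfsf13b passed in spleen (-0.26, adjusted p = 0.04). With such pairs 25.2% of all genes passed in spleen, against 15.8% in the main fit.

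TRAIL (Tnfsf10), which can kill cells through Tnfrsf10b, ran from 7.55 over 8.14 to 8.21 in asymptomatic and from 6.36 over 6.81 to 8.80 in lymphoma spleens. In the nodes it ran from 7.85 over 8.90 to 9.24 and from 6.41 over 7.65 to 9.10. Lymphoma mouse 2 was highest in both tissues and lymphoma mouse 4 was lowest in both, so the groups overlapped. Tnfsf10 differed in the fit by -0.90 (SE 0.31, adjusted p = 0.0479) and -1.60 (SE 0.34, adjusted p = 0.00105). The spleen call was lost in 17 of the 26 other settings, with an adjusted p of up to 0.689, and the node call in 7 of 26, with up to 0.296. The mice whose removal ended the spleen call were asymptomatic 2, 3 and 6, FVB/N 1 and 3, and lymphoma 1, 2, 3, 5 and 6. In the nodes they were asymptomatic 6 and lymphoma 3 and 5. Without asymptomatic mouse 4 the spleen difference was -1.50 (adjusted p = 0.00854), and without lymphoma mouse 1 that in the nodes was -0.89 (0.0296). RANK ligand (Tnfsf11), the osteoclast and lymph node organizer factor, was at 7.86 ± 0.13 in asymptomatic and 8.62 ± 0.40 in lymphoma spleens (SD, n = 6 each), with no overlap. Its fitted difference of 0.51 (SE 0.23, adjusted p = 0.155) did not pass, and without surrogate variables it was 0.76 (adjusted p = 0.0188, and 0.00025 with mouse numbers paired). In the nodes it was at 8.35 ± 0.47 and 8.89 ± 0.60, with a difference of 0.53 (SE 0.26, adjusted p = 0.154).

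**Figure D2:**
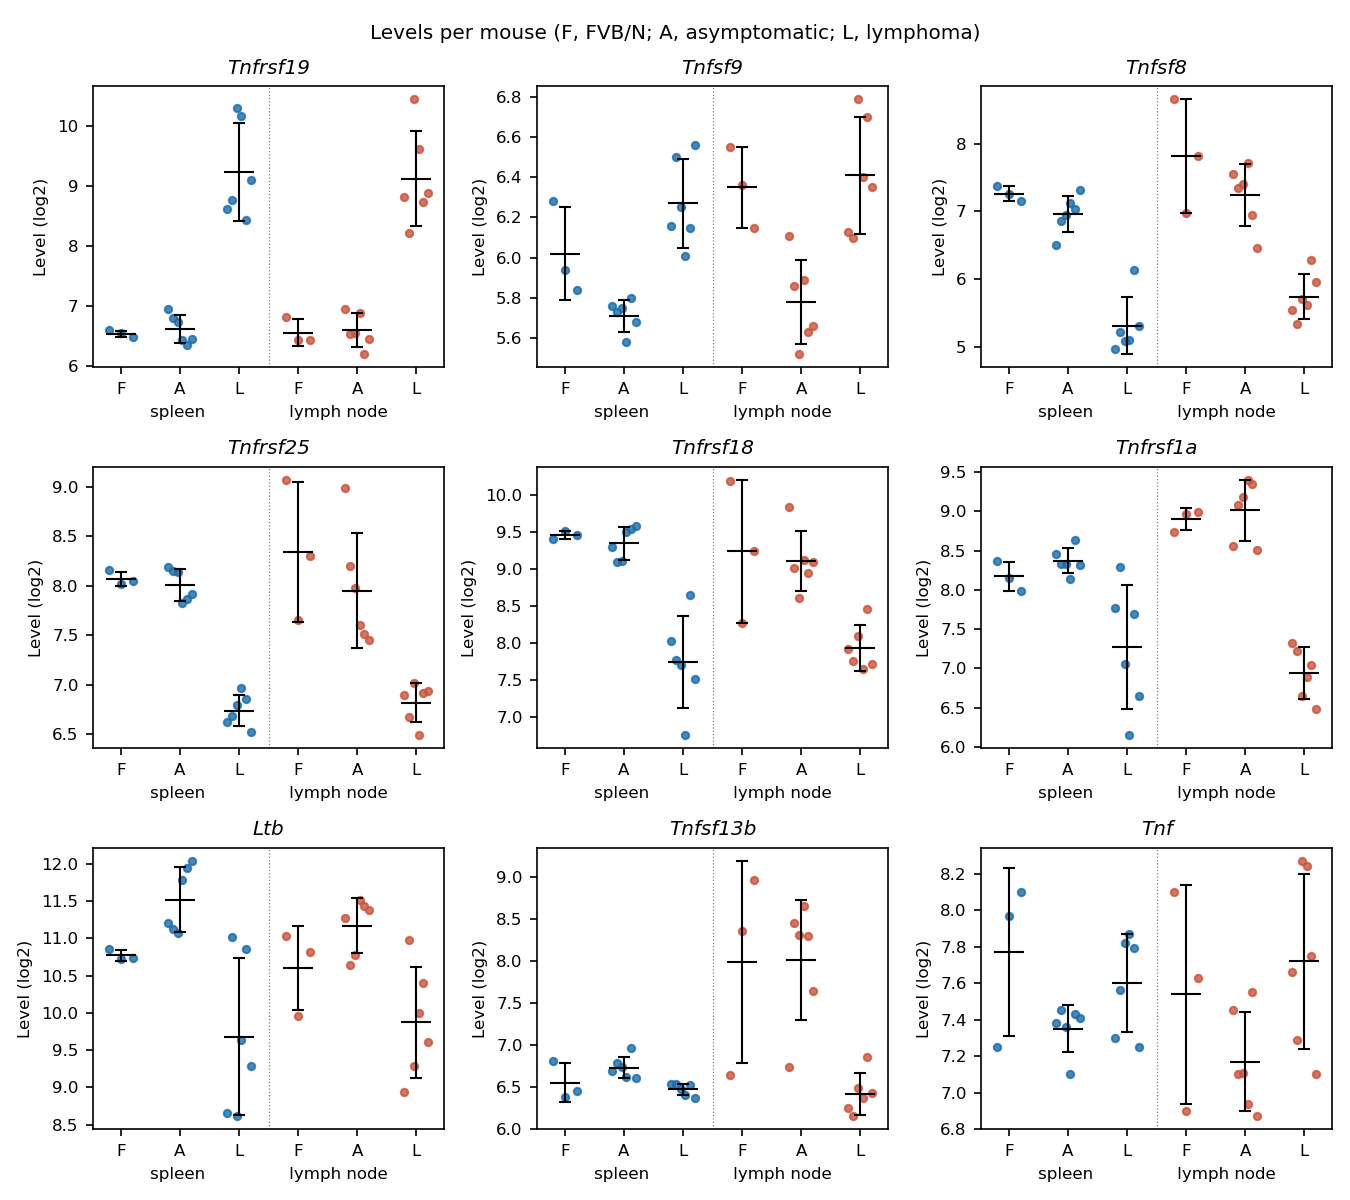
Log2 level of 9 members in each mouse (points) with the group mean and SD (bars), for FVB/N (F, n = 3), asymptomatic (A, n = 6) and lymphoma (L, n = 6) mice, spleen on the left and lymph node on the right of each panel. Tnfrsf19 sits at 8.21 or above in every lymphoma sample and at 6.95 or below in all others, while Tnfsf8 and Tnfrsf25 separate the other way.

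Both TNF receptors were lower in nodes with lymphoma, and Tnfrsf1a in spleen too. Tnfrsf1a (TNFR1), the death domain receptor found on most cells, ran from 8.14 over 8.33 to 8.63 in asymptomatic and from 6.15 over 7.37 to 8.29 in lymphoma spleens, with FVB/N at 8.37, 8.15 and 7.99. In the nodes it ran from 8.51 over 9.13 to 9.40 and from 6.49 over 6.96 to 7.33, with FVB/N at 8.74, 8.97 and 8.99. The node groups were apart by more than 1 log2 unit, while the spleen of lymphoma mouse 2 lay among the asymptomatic ones. The fitted differences were -1.0 (SE 0.20, adjusted p = 0.000734) and -1.71 (SE 0.22, adjusted p = 2.55e-06). In spleen the call was lost without the neighbouring-organ arrays (-0.60, adjusted p = 0.192) and within batch A (-0.67, 0.105), and the difference was -1.53 within batch B (0.0207). Tnfrsf1b (TNFR2), mainly on lymphocytes and myeloid cells, was at 9.40 ± 0.28 in asymptomatic and 8.61 ± 0.27 in lymphoma nodes (SD, n = 6 each), with a difference of -0.95 (SE 0.21, adjusted p = 0.00138). It did not pass without the neighbouring-organ arrays (-0.64, adjusted p = 0.197) or within batch B (-0.70, 0.0805). In spleen it was at 9.12 ± 0.32 and 8.73 ± 0.26, with a difference of -0.15 in the fit (SE 0.19, adjusted p = 0.674).

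Of the 6 costimulatory receptors, 3 fell in spleen and 5 in lymph node, beside the T cell list given above. Tnfrsf25 (DR3), a death domain receptor of T cells, ran from 7.83 over 8.03 to 8.19 in asymptomatic and from 6.52 over 6.74 to 6.97 in lymphoma spleens. FVB/N spleens were at 8.16, 8.02 and 8.05. The lymphoma spleens lay far below the others, with little spread in either group. The fit gave a difference of -1.03 (SE 0.12, adjusted p = 2.1e-06). In the nodes Tnfrsf25 ran from 7.45 over 7.79 to 8.99 and from 6.49 over 6.91 to 7.02, with FVB/N at 9.07, 7.65 and 8.30. The groups did not overlap, and node 1 of both the FVB/N and the asymptomatic mice was highest. These 2 nodes also had the highest T cell list means, 10.79 and 10.58. The fitted difference was -1.74 (SE 0.14, adjusted p = 3.12e-09), -1.13 without surrogate variables (8.55e-05) and -0.73 within batch B (0.00586).

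Tnfrsf18 (GITR), high on regulatory T cells, ran from 9.09 over 9.40 to 9.59 in asymptomatic and from 6.75 over 7.73 to 8.65 in lymphoma spleens. FVB/N spleens were at 9.41, 9.51 and 9.46. In the nodes it ran from 8.61 over 9.05 to 9.84 and from 7.65 over 7.84 to 8.46, with FVB/N at 10.20, 8.27 and 9.24. Neither tissue showed overlap between lymphoma and asymptomatic mice. Tnfrsf18 differed in the fit by -0.85 (SE 0.15, adjusted p = 0.000225) and -1.48 (SE 0.16, adjusted p = 3.9e-07). The spleen difference was -1.62 without surrogate variables (adjusted p = 3.4e-05), -1.34 without lymphoma mouse 5 (3.49e-08) and -0.67 without the neighbouring-organ arrays (0.0558). The node difference was -1.12 within batch B (adjusted p = 0.0549). Of 5 regulatory T cell genes, 2 fell and 1 rose in spleen and 4 fell in lymph node.

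Tnfrsf9 (CD137), induced on activated T cells, was at 7.67 ± 0.18 in asymptomatic and 6.62 ± 0.51 in lymphoma spleens, and at 7.72 ± 0.51 and 6.84 ± 0.46 in the nodes (SD, n = 6 each). Lymphoma mouse 3 stood at 7.66 in spleen and 7.74 in lymph node, among the asymptomatic values. The other lymphoma samples lay at 6.89 or below, under every asymptomatic one but the lowest node (6.84). The fitted differences were -0.90 (SE 0.27, adjusted p = 0.0223) and -1.39 (SE 0.29, adjusted p = 0.00106). The spleen call was lost without FVB/N mouse 1 (-0.85, adjusted p = 0.0562), without lymphoma mouse 1 (-0.88, 0.0566) and within batch A (-0.76, 0.188). Within batch A the node difference was -0.94 (adjusted p = 0.0855). Without surrogate variables it was -0.88 (adjusted p = 0.00681).

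Tnfrsf4 (OX40), a receptor of activated T cells, was at 8.59 ± 0.51 in asymptomatic and 7.46 ± 0.54 in lymphoma nodes (SD, n = 6 each), with a difference of -1.51 (SE 0.27, adjusted p = 0.0002). Lymphoma mouse 3, at 8.43, was again the highest lymphoma node. Without the neighbouring-organ arrays the difference was -0.94 (adjusted p = 0.107), and within batch A it was -1.0 (0.0342). In spleen Tnfrsf4 was at 8.10 ± 0.21 and 7.28 ± 0.36, and its fitted difference of -0.61 (SE 0.25, adjusted p = 0.101) did not pass, against -0.82 without surrogate variables (0.0159, and 0.000244 with mouse numbers paired). Tnfrsf14 (HVEM), on T and B cells, was at 9.97 ± 0.41 and 9.20 ± 0.12 in the nodes, where no lymphoma mouse reached the lowest asymptomatic one. The fitted difference was -0.86 (SE 0.15, adjusted p = 0.000134), and -0.79 within batch A (0.079). In spleen it was at 10.02 ± 0.13 and 9.44 ± 0.43, and differed by -0.19 in the fit (SE 0.13, adjusted p = 0.393), against -0.58 with mouse numbers paired (0.00209). Tnfrsf8 (CD30) had group means from 6.60 to 6.75 and passed in neither tissue.

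**Figure D3:**
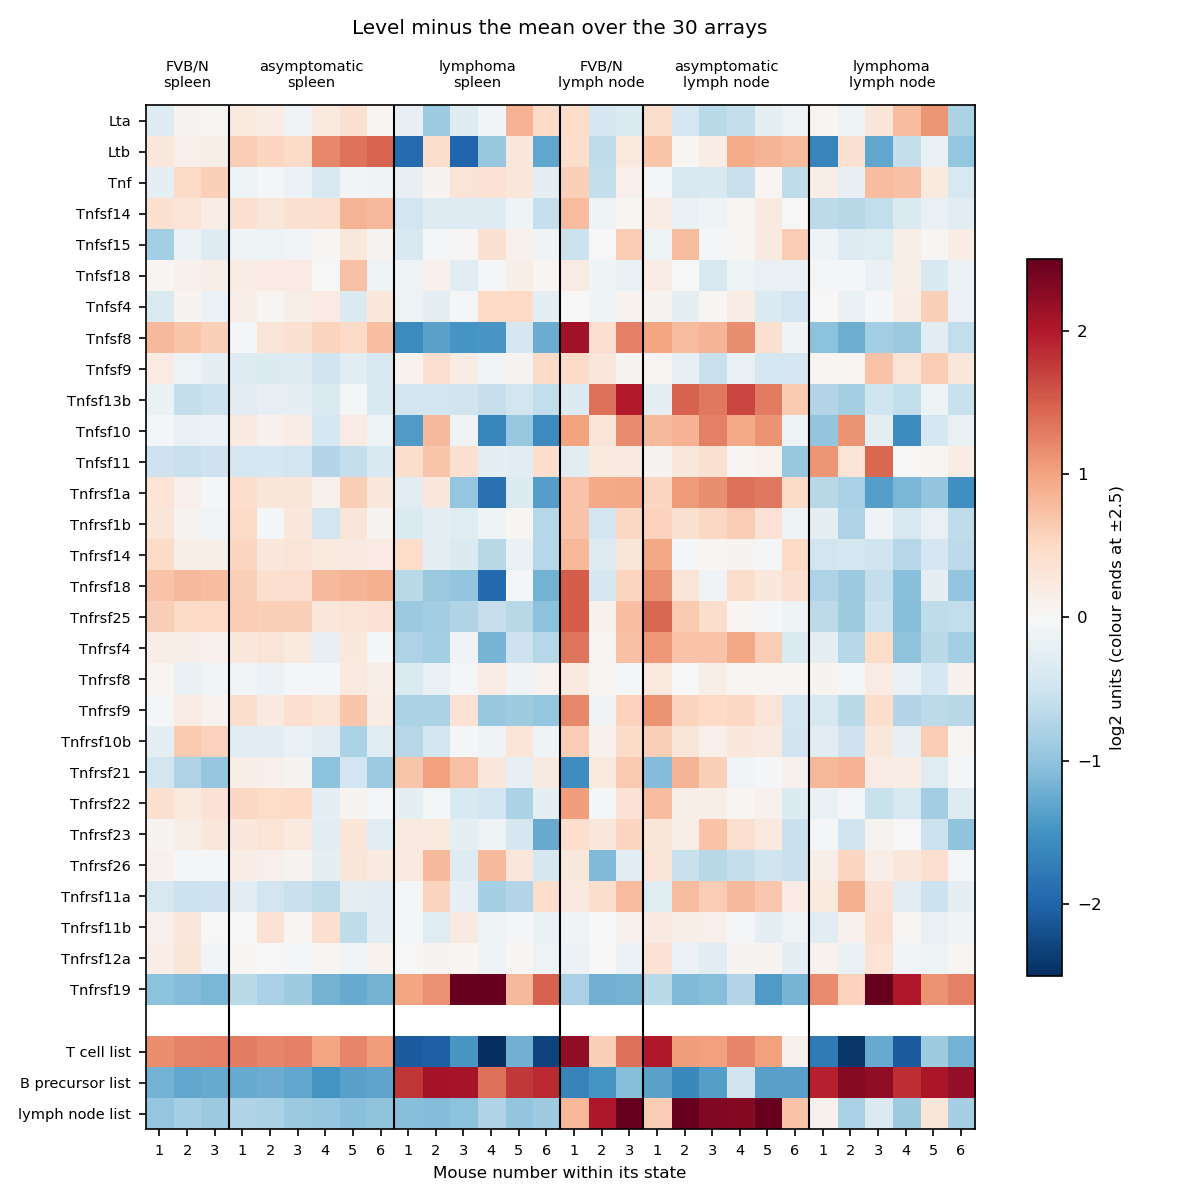
Level of each of the 29 members on each of the 30 arrays, as the difference from the member's mean over all arrays (colour, log2 units, ending at ±2.5), with 3 marker list means beneath. Columns are mice by number within their state and tissue. Lymphoma columns are blue for most costimulatory receptors and for the T cell list and red for Tnfrsf19 and the precursor B cell list, and lymphoma mouse 3 is lighter for Tnfrsf9 in both tissues.

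Among the TRAIL receptor, the decoys and the other death domain receptors, Tnfrsf22 fell in both tissues. Tnfrsf22 and Tnfrsf23 are mouse decoy receptors of TRAIL and lie side by side with Tnfrsf26 on chromosome 7. They are related genes, and whether their probe sets share signal was not tested. Tnfrsf22 was at 8.24 ± 0.32 in asymptomatic and 7.66 ± 0.25 in lymphoma spleens, and at 8.18 ± 0.36 and 7.63 ± 0.29 in the nodes (SD, n = 6 each). The fitted differences were -0.78 (SE 0.10, adjusted p = 4.68e-06) and -1.09 (SE 0.11, adjusted p = 1.08e-07), larger than the measured ones of -0.58 and -0.55. Without surrogate variables the adjusted p was 0.0273 and 0.023. Without lymphoma mouse 5 the spleen difference was -0.45 (adjusted p = 0.00141). Within batch B it was -0.44 in spleen (adjusted p = 0.212) and -0.47 in the nodes (0.112), and within batch A -0.63 in the nodes (0.0725).

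Tnfrsf23 had fitted differences of -0.36 (SE 0.23) and -0.42 (SE 0.25), and Tnfrsf26 of 0.32 (SE 0.24) and 0.21 (SE 0.26), with adjusted p from 0.261 to 0.636. Without surrogate variables Tnfrsf26 passed in the nodes (0.68, adjusted p = 0.0159) and not in spleen (0.12, 0.83). Tnfrsf10b, the death receptor for TRAIL, differed in fitted sign between the tissues, at 0.48 (SE 0.19, adjusted p = 0.0984) in spleen and -0.50 (SE 0.21, adjusted p = 0.101) in the nodes, and passed in neither. Tnfrsf21 (DR6), a death domain receptor, was called as higher in the nodes (1.02, SE 0.25, adjusted p = 0.00402). Its measured means there were 9.06 ± 0.67 and 9.29 ± 0.47 (SD, n = 6 each), a difference of 0.23 (adjusted p = 0.642 without surrogate variables) that was 0.52 in batch A and -0.05 in batch B. The call was also lost without asymptomatic mouse 1 (0.62, adjusted p = 0.179), whose node was the lowest at 7.92. In spleen the means were 8.66 ± 0.55 and 9.45 ± 0.44, and the fit gave 0.36 (SE 0.23, adjusted p = 0.33), against 0.79 with mouse numbers paired (0.00117).

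Tnfrsf19 (TROY), a receptor best known from embryonic skin, hair follicle and nervous system, had the largest rise of the 29 members in both tissues. In spleen it was at 6.60, 6.55 and 6.49 in FVB/N mice, ran from 6.36 over 6.59 to 6.95 in asymptomatic mice and from 8.43 over 8.93 to 10.30 in lymphoma mice. In the nodes it was at 6.82, 6.43 and 6.44, from 6.20 over 6.55 to 6.95, and from 8.21 over 8.85 to 10.45. Every lymphoma sample lay more than 1 log2 unit above every other sample, and FVB/N and asymptomatic samples were near the 6.34 mark. Lymphoma mice 3 and 4 were highest in both tissues, at 10.30 and 10.17 in spleen and 10.45 and 9.62 in lymph node. The fitted differences were 2.53 (SE 0.37, adjusted p = 2.5e-05) and 2.21 (SE 0.41, adjusted p = 0.000248). Measured within batch A they were 2.40 and 2.48, and within batch B 2.82 and 2.57. Without the neighbouring-organ arrays, and with surrogate variables found anew, the fitted differences were 1.47 and 1.31. The asymptomatic spleens kept in that fit lay at 6.95, 6.81, 6.73 and 6.45, and all 6 lymphoma spleens were kept. Of the receptors of bone and tissue, Tnfrsf11a (RANK), its soluble decoy Tnfrsf11b (osteoprotegerin) and Tnfrsf12a (TWEAK receptor) passed in neither tissue, with fitted differences from -0.38 to 0.02.

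Family members with other symbols and genes of the signalling downstream were read from lists. Their counts stand against 8.58% of all genes higher and 7.25% lower in spleen, and 11.6% and 12.5% in lymph node. Of 12 superfamily genes with other symbols, 4 fell in spleen and 6 in lymph node, and none rose. Cd27, a receptor of T cells and memory B cells, differed by -2.72 (SE 0.26, adjusted p = 8.61e-08) in spleen and -3.26 (SE 0.28, adjusted p = 1.42e-08) in the nodes. Cd40lg, the helper T cell ligand, differed by -2.26 and -2.71, its receptor Cd40 by -1.38 and -1.21, and the death receptor Fas by -1.48 and -1.84, all with adjusted p of at most 0.000184. Of 10 measured receptor adaptors, 4 fell and 1 rose in spleen, and 5 fell and 2 rose in lymph node. Traf1 differed by -1.45 and -2.04, Traf5 by -0.95 and -0.86 and Tank by -0.83 and -0.72. Traip, a ubiquitin ligase that works at replication forks, rose by 0.78 and 1.03, beside 7 of 7 proliferation genes that rose in both tissues.

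Of 12 inhibitors and ubiquitin enzymes, 2 fell in spleen (Tnip1 and Cyld), and 6 fell and 1 rose in lymph node. The spleen count is near the share of all genes that passed there, 15.8%. Tnip1, which restrains NF-kB with Tnfaip3, differed by -0.64 and -1.14, and Cyld, a deubiquitinase, by -0.61 and -0.64. In the nodes Tnfaip3 differed by -1.27 and Cflar, an inhibitor of caspase activation, by -0.90. Of 8 NF-kB subunits and inhibitors, 4 fell in spleen, and 5 fell and 1 rose in lymph node. Nfkb2 and Relb, the subunits of the alternative pathway, differed by -0.85 and -0.72 in spleen and by -0.86 and -0.96 in the nodes. Bcl3 and Nfkbie differed by -0.69 and -0.58 in spleen and by -0.56 and -0.46 in the nodes.

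Of 11 measured kinases and caspases, 1 fell and 1 rose in spleen, and 1 fell and 2 rose in lymph node, near the shares of all genes in spleen. Map3k14 (NIK), the kinase of the alternative NF-kB pathway, differed by -0.51 and -0.59, and Mlkl, the effector of necroptosis, by 0.92 and 1.28. Map3k5 rose by 0.67 in the nodes. Of 4 genes of ligand shedding, Adam10 rose in both tissues, by 0.54 and 0.53, and Rhbdf2, a partner of the TNF sheddase, by 0.63 in the nodes. Of all called genes of these lists, 6 did not pass without surrogate variables: in the nodes Mlkl (adjusted p = 0.0878), Map3k14 (0.16), Nfkbib (0.203), Sharpin (0.222) and Traf2 (0.279), and in spleen Adam10 (0.111). In the same setting 8 further genes of the lists passed in spleen and 3 in lymph node. For a difference between tissues in the change, no gene of these lists passed with surrogate variables, and Rhbdf2 (0.91, adjusted p = 0.0184) and Eda2r (-0.62, 0.0423) passed without them.

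Without lymphoma, no member passed between asymptomatic and FVB/N mice in either tissue. By limma, 3 members in spleen and 2 in lymph node had an unadjusted p under 0.05, and 0.617% and 1.94% of all genes passed after adjustment (0.306% higher and 0.311% lower in spleen, 1.34% and 0.592% in lymph node). The 3 in spleen were Tnfrsf10b (-0.69, SE 0.19, adjusted p = 0.139), Tnfrsf21 (0.64, SE 0.22, adjusted p = 0.321) and Tnfsf8 (-0.44, SE 0.16, adjusted p = 0.36). In the nodes they were Tnfsf9 (-0.47, SE 0.17, adjusted p = 0.15) and Tnfsf14 (-0.28, SE 0.12, adjusted p = 0.266). Ltb in spleen had no overlap, with FVB/N at 10.72 to 10.85 and asymptomatic mice at 11.07 to 12.04, but differed by 0.28 in the fit (SE 0.33, adjusted p = 0.993). The asymptomatic spleens of batch A lay at 11.20, 11.12 and 11.07, nearer to FVB/N than the 11.78, 11.94 and 12.04 of batch B. With 3 FVB/N mice, of which the nodes of 2 carried salivary gland transcripts, these comparisons had fewer arrays than the others.

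Against FVB/N mice, which share the lymphoma arrays with the comparison above, 8 members passed in spleen, 2 higher and 6 lower, and 13 in lymph node, 2 higher and 11 lower. Of all genes, 12.3% passed in spleen, 7.1% as higher and 5.25% as lower, and 16.6% in lymph node, 8.59% as higher and 7.98% as lower. The smallest adjusted p in spleen belonged to Tnfsf8 (-1.76, SE 0.20, adjusted p = 2.09e-06), Tnfrsf19 (2.78, SE 0.45, adjusted p = 0.000139) and Tnfrsf25 (-0.87, SE 0.15, adjusted p = 0.000283). Tnfrsf22 differed by -0.70, and by -0.33 without lymphoma mouse 5 and -0.40 without asymptomatic mouse 6; it did not pass with batch as a term (-0.50, adjusted p = 0.0814) or within batch A (-0.55, 0.122). Tnfrsf18 differed by -0.94, and by -1.51 without lymphoma mouse 5. Without the neighbouring-organ arrays Tnfrsf19 differed by 1.70 (adjusted p = 0.00352). In the nodes they belonged to Tnfsf8 (-2.45, SE 0.21, adjusted p = 4.26e-08), Tnfrsf25 (-1.82, SE 0.16, adjusted p = 5.06e-08) and Tnfrsf22 (-1.28, SE 0.13, adjusted p = 2.99e-07). Tnfrsf22 differed by -0.65 with batch as a term (adjusted p = 0.0145). Tnfrsf18 differed by -1.38 and Tnfsf14 by -0.96, the latter by -1.49 without the neighbouring-organ arrays. Among the 21 calls, the fit and the means were furthest apart for Tnfrsf21 in the nodes (1.48 fitted, 0.51 measured) and Tnfrsf18 in spleen (-1.72 measured). Without lymphoma mouse 5, 13 members passed in spleen in place of 8, and the share of all genes in that setting is not given.

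No member passed for the difference between tissues in the lymphoma change, by limma, with 10 at an unadjusted p under 0.05 and 0.572% of all genes called. The smallest adjusted p were 0.0531 for Tnfrsf25 (-0.71, SE 0.17) and 0.091 for Tnfsf8 (-0.83, SE 0.22), both lower in the node. Their measured differences were 0.14 and 0.16, with the other sign. With each mouse as a block, so that its node is set against its own spleen, Tnfrsf1a passed (-0.98, SE 0.26, adjusted p = 0.0397), where 5.91% of all genes did. Node minus spleen of Tnfrsf1a was above 0 in 6 of 6 asymptomatic mice, from 0.09 over 0.74 to 1.25. The 0.09 was that of mouse 1, whose node alone of these carried no neighbouring-organ transcripts. Among lymphoma mice it was below 0 in 5 of 6, from -1.07 over -0.42 to 0.74. The 0.74 was that of lymphoma mouse 4, whose spleen and node marker lists ran opposite to those of the other lymphoma mice. Tnfsf13b differed by -1.33 in that fit (SE 0.38, adjusted p = 0.0518).

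The tissues themselves were compared within each state, and here the choice of fit decided which members were called. With surrogate variables, 4 members were higher in the node in FVB/N mice (4.27% of all genes called, 2.14% as higher and 2.13% as lower) and 7 in asymptomatic mice (5.62%, 3.36% as higher and 2.26% as lower). In FVB/N mice these were Tnfrsf25 (0.97, SE 0.16, adjusted p = 0.00119), Tnfsf8 (1.16, SE 0.21, adjusted p = 0.00258), Tnfrsf22 (0.57, SE 0.13, adjusted p = 0.0122) and Tnfrsf18 (0.72, SE 0.19, adjusted p = 0.0341). Their measured differences were 0.26, 0.56, 0.12 and -0.22. In asymptomatic mice the smallest adjusted p belonged to Tnfsf8 (1.30, SE 0.18, adjusted p = 0.000328), Tnfrsf18 (0.92, SE 0.17, adjusted p = 0.00207) and Tnfrsf25 (0.74, SE 0.14, adjusted p = 0.00265), with measured differences of 0.27, -0.25 and -0.06. Tnfrsf10b (1.13, SE 0.22, adjusted p = 0.00351) and Tnfrsf4 (1.14, SE 0.28, adjusted p = 0.0164) had measured differences of 0.52 and 0.49, and Tnfsf10 and Tnfrsf1b were the other 2 called. Without FVB/N mouse 1 none of the 4 FVB/N calls passed, and that of Tnfrsf22 was also lost without FVB/N mouse 3. The FVB/N call of Tnfrsf18 was lost without asymptomatic 1, 3, 5 or 6, FVB/N 2 or 3, or lymphoma 1, 3 or 6. In asymptomatic mice Tnfrsf18 lost its call without asymptomatic mouse 1 (0.53, adjusted p = 0.207), and Tnfrsf4 without asymptomatic mouse 4 (0.0829), FVB/N mouse 1 (0.178) or FVB/N mouse 2 (0.116).

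With each mouse as a block, 3 of 29 members passed in FVB/N and 7 in asymptomatic mice. These counts are near the shares of all genes that passed, 8.04% and 19.8%. Of these members, 0 and 2 were called above. BAFF (Tnfsf13b) was higher in the node by 1.44 in FVB/N (SE 0.38, adjusted p = 0.0295) and by 1.28 in asymptomatic mice (SE 0.27, adjusted p = 0.00364). In single mice it differed by -0.17, 1.97 and 2.51 in FVB/N mice and from 0.05 over 1.45 to 2.04 in asymptomatic mice, with mouse 1 of each state near 0. Tnfrsf11a (RANK) was higher by 0.98 (SE 0.26, adjusted p = 0.0275) and 0.89 (SE 0.18, adjusted p = 0.00293), and Tnfsf10 by 0.96 (SE 0.26, adjusted p = 0.0323) and 0.79 (SE 0.18, adjusted p = 0.00672). In FVB/N and asymptomatic mouse 1, whose nodes alone in these states lacked neighbouring-organ transcripts, Tnfrsf11a differed by 0.63 and -0.03. In the same mice Tnfsf10 differed by 1.06 and 0.59. In asymptomatic mice Tnfrsf1a (0.65) and Tnfrsf10b (0.52) were also higher in the node, and Tnfsf14 (-0.50) and Tnfrsf26 (-0.54) lower. The stroma list averaged 7.77 to 9.47 in asymptomatic nodes and 5.94 to 6.27 in their spleens, and its part in these differences was not tested.

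In mice with lymphoma no member passed between the tissues by limma with surrogate variables (3 at an unadjusted p under 0.05, 0.0552% of all genes called). None passed with the mouse as a block either, where 0 of 19938 genes passed. Both fits hold lymphoma mouse 4, whose spleen and node marker lists ran opposite to those of the other lymphoma mice. Without that mouse 1 member passed with surrogate variables. Node minus spleen of Tnfsf13b was between -0.38 and 0.33 in the 6 lymphoma mice, and that of Tnfsf14 between -0.37 and 0.31.

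**Figure D4:**
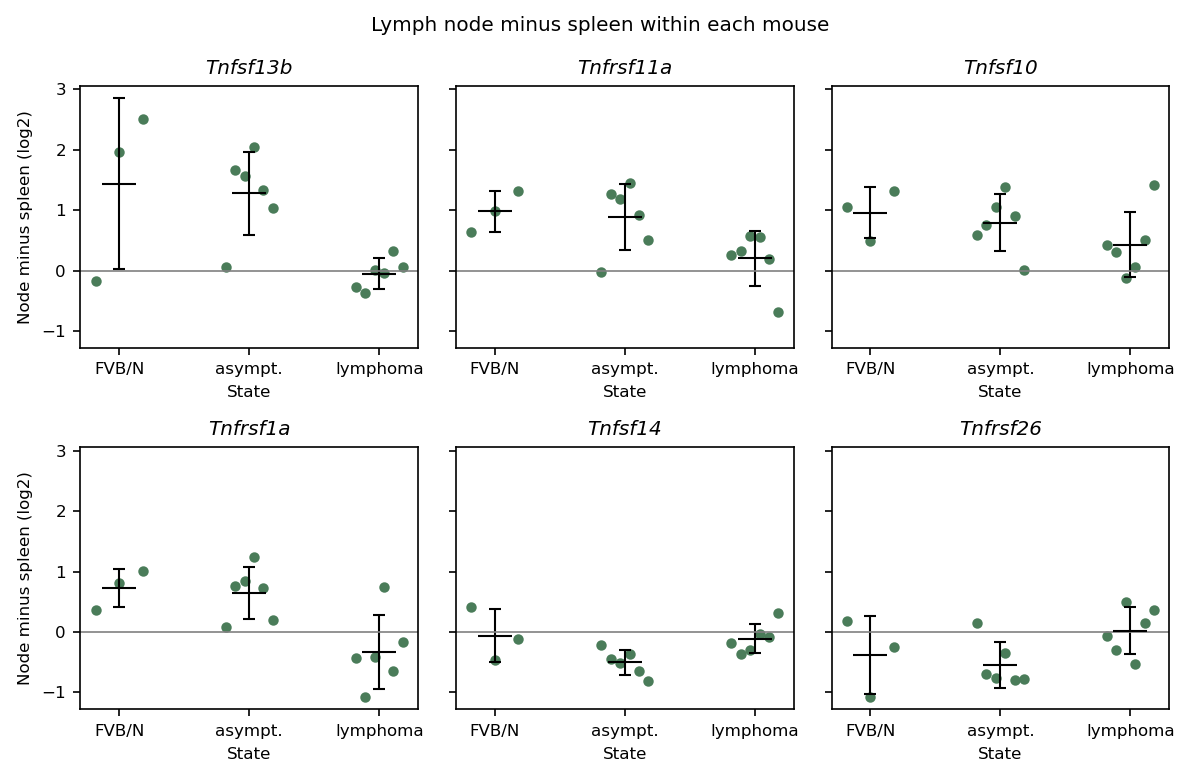
Lymph node minus spleen level within each mouse (points, log2 units) with mean and SD (bars) for 6 members in FVB/N (n = 3), asymptomatic (n = 6) and lymphoma (n = 6) mice. For Tnfsf13b the asymptomatic mice spread from 0.05 to 2.04 and the lymphoma mice from -0.38 to 0.33.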

How the data were processed

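RNA from both tissues was hybridised to Affymetrix Mouse Gene 1.0 ST arrays. The deposited values are log2 levels of probe sets, which the authors normalized by frozen robust multiarray analysis; the series' design text says so. Software versions are not given in the sources used here. Scanner files were not used, so signal over background was not assessed; the number of arrays limits the precision. Of 35557 probe sets, 1 had no values. Genes were named from the 21789 probe sets with 1 symbol, taking the one with the highest mean level per gene (19938 genes), with current symbols from RefSeq (GRCm38.p6, 21698 probe sets matched).

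One limma 3.58.1 fit (R 4.3.3) held all 30 arrays, 6 groups and 6 surrogate variables, a method that the design text also names. They were found by iterative re-weighting of the residuals, with 20 permutations setting how many to keep. A gene was called where its adjusted p (Benjamini-Hochberg, all genes of 1 comparison) was under 0.05. Differences and standard errors (SE) are from this fit unless called measured, which are differences of group means. The fit was tested on simulated data with known changes.

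The members, role groups, lists and comparisons were chosen with earlier results of these data known. Values are given for every member called for lymphoma against asymptomatic with the same measured sign in both batches, for up to 5 called members of other comparisons, and for up to 4 genes of a list; Tnfrsf21 completes a count, and the genes named as losing their call or as furthest from their means were picked after their values were seen. Replicates are separate mice. Spleen and node of 1 mouse share its number in the labels; deviations from the group means correlated between them at -0.01 to 0.68, in 12 of 15 mice over 0.1. Mouse numbers shared by different mice of 1 batch were set as a block in an alternative fit. Deviations of such pairs correlated over 0.1 in 6 of 6 in spleen and in 4 of 6 in lymph node. The labels name no such pairing. Pairs of different numbers within 1 batch were not compared, so these correlations do not separate a shared number from a shared batch. Alternatives were a fit without or with 3 surrogate variables, batch, mouse or organ covariates as terms, a filter on low levels, probe set means, each batch alone and each mouse left out. Leaving out the 10 arrays with neighbouring-organ transcripts was chosen after seeing the data. It leaves 1 FVB/N and 1 asymptomatic node, assumed to vary like the other groups. The surrogate variables were found anew on the 20 kept arrays, so this setting changed arrays and variables together. Their effects were not separated. In spleen all 6 lymphoma arrays were kept. For Tnfrsf1a the kept asymptomatic spleens lay at 8.46, 8.33, 8.33 and 8.31, beside a mean of 8.37 over all asymptomatic spleens. For Ltb they lay at 11.20, 11.12, 11.07 and 12.04, beside a mean of 11.52.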

Additional observations from a re-analysis of the deposited data

Results flagged for a closer look

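In the groups of 6 mice, 11 of 116 sets of member values had 1 mouse far from the other 5 by Dixon's test at the 95% level, which chance gives for about 1 in 20. Asymptomatic mouse 6 was low in lymph node for Tnfsf10 (7.85), Tnfsf11 (7.43), Tnfrsf1b (8.88) and Tnfrsf4 (7.61), and its node had an exocrine pancreas list mean of 13.58. Asymptomatic mouse 1 was high for Tnfrsf26 in lymph node (8.98) and for Tnfrsf14 in spleen (10.27). Asymptomatic mouse 4 was low for Tnf in spleen (7.10), and asymptomatic mouse 5 for Tnfrsf10b in spleen (6.49); both spleens carried pancreas transcripts, with list means of 7.80 and 8.94. Lymphoma mouse 3 was high for Tnfrsf9 in spleen (7.66) and in lymph node (7.74). Lymphoma mouse 5 was high for Tnfsf8 in spleen (6.14).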

How the results depend on the processing

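The 26 lymphoma against asymptomatic results of single members kept their direction in every setting run, except Tnfrsf21 in the nodes of batch B (-0.05). Of 1465 single values over all comparisons, 1243 kept direction and call, 212 lost the call and 10 reversed. The other reversals were Tnfrsf18 between node and spleen without surrogate variables, with batch as a term and with the mouse as a replicate block (-0.22 each in FVB/N, -0.25 each in asymptomatic mice) and Tnfrsf25 in the same 3 settings in asymptomatic mice (-0.06 each). The cause was not tested. Members called for lymphoma against asymptomatic spleens numbered 7 within batch A, where fewer mice were tested, and 6 without the neighbouring-organ arrays, in place of 11. For the difference between tissues 1 passed with batch as a term (Tnfsf13b), 1 with the mouse as a random block (Tnfrsf25), 2 with the filter on low levels (Tnfrsf14 and Tnfrsf25) and 1 with the mouse as a replicate block (Tnfrsf1a). Node against spleen in FVB/N mice gave 1 call without surrogate variables, 1 with batch as a term, 1 with 3 surrogate variables, 2 with the filter, 0 with organ covariates and 9 without the neighbouring-organ arrays, in place of 4. In asymptomatic mice it gave 3, 3, 4 and 0 calls without surrogate variables, with batch, with 3 surrogate variables and with organ covariates, and 2 without those arrays, in place of 7. Leaving out 1 mouse at a time gave 9 to 17 calls in spleen and 14 to 17 in the nodes for lymphoma against asymptomatic, 17 in spleen without lymphoma mouse 4 or 5. It gave 0 to 1 and 0 to 0 for asymptomatic against FVB/N, 7 to 13 and 10 to 15 for lymphoma against FVB/N, and 0 to 2 for the difference between tissues. For node against spleen it gave 0 to 5 in FVB/N, where 0 passed without FVB/N mouse 1, 4 to 8 in asymptomatic and 0 to 1 in lymphoma mice. Asymptomatic and lymphoma mice of 1 number are different animals of 1 batch, and their deviations correlated at 0.23 to 0.50 in spleen, in 6 of 6 pairs over 0.1, and at 0.08 to 0.24 in lymph node, in 4 of 6 pairs. With the number as a replicate block 16 and 17 members passed for lymphoma against asymptomatic, where 25.2% and 26.1% of all genes passed. In the main fit 15.8% and 24.1% of all genes passed. Beside the 5 spleen members given above the number block changed no spleen call. In the nodes Tnfsf9, Tnfrsf23 and Tnfrsf26 passed with it and Tnfrsf21 did not. Apart from the replicate blocks, the share of all genes called in these settings is not given. These counts therefore do not show whether members gained or lost calls more than all genes did. Signal over background was not measured, which limits the 5 members at low levels.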

Other observations

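The probe set shared by Tnfsf12 (TWEAK) and Tnfsf13 (APRIL), which is no member because it carries several symbols, was at 7.78 ± 0.47 in asymptomatic and 6.55 ± 0.22 in lymphoma nodes (SD, n = 6 each) and at 7.37 ± 0.53 in FVB/N nodes (SD, n = 3). In spleen it was at 7.0 ± 0.17, 6.88 ± 0.36 and 6.75 ± 0.05 in the same order. The probe set was not tested, and the 2 genes cannot be told apart on it.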
